A study of Mus musculus with 18 samples.

Results

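The messenger RNAs described here encode 10 enzymes of sphingolipid and ganglioside synthesis, namely Sptlc1, Sptlc2, Sptlc3, Degs1, Ugcg, B4galt5, B4galt6, St3gal5, Sgms1 and Sphk1. They were picked by symbol out of the 52093 symbols measured in adipose tissue of mice on a high-fat diet (HFD). The rule selected on a measured value, the mean RPKM over all 18 samples, only where a symbol had several rows, and each of these 10 symbols had 1 row. RPKM is the number of reads scaled to transcript length and to library size, so that levels of genes of different length can be set side by side. Total RNA was sequenced from 6 samples each of inguinal white adipose tissue (iWAT) adipocytes, epididymal white adipose tissue (eWAT) adipocytes and brown adipose tissue (BAT). All samples came from wild-type male C57BL/6 mice, aged 16 weeks, that had eaten the HFD for 12 weeks; no sample of another genotype or diet enters any comparison below. Both white depots were digested with collagenase and the floating mature adipocytes were collected, whereas BAT was frozen and extracted as whole tissue. The comparisons ask how the tissues differ, and each BAT comparison therefore sets a whole tissue against isolated cells that were also run on other sequencing lanes, differences that cannot be told apart from the tissue.

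The reads assigned to genes numbered 26768529 to 30166441 in iWAT, 24655056 to 37438994 in eWAT and 27402247 to 42518483 in BAT. The labelled tissues carried their markers. Summed RPKM of 4 brown adipocyte markers, with Ucp1 among them, was 1995 to 2631 in BAT, 9.19 to 12.1 in iWAT and 1.52 to 3.15 in eWAT, and the sum of 4 adipocyte markers was 10484 to 14836 in iWAT, 2377 to 7331 in eWAT and 5341 to 6560 in BAT, with all 4 higher in iWAT than in eWAT. The floating cells were not adipocytes alone. The sum of 6 macrophage markers (Cd68, Adgre1, Csf1r, Cd14, Lyz2 and Itgax) was 459 to 892 in iWAT, 2601 to 4159 in eWAT and 24.5 to 48.4 in BAT, and all 6 markers were higher in eWAT than in iWAT and higher in either white depot than in BAT. This order of the tissues, eWAT over iWAT over BAT, was also the order of the means of 9 of the 10 enzymes described here. Of these, Ugcg did not differ between the white depots, and Sptlc3 did not differ between iWAT and BAT where it was tested. How many of all genes had this order was not counted. The part in these results of macrophages, or of the lower adipocyte marker sum in eWAT, was not tested. In such bulk samples, fewer cells of a type and less RNA per cell cannot be told apart.

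Sphingolipids are built on a long-chain base. Serine palmitoyltransferase, a complex on the endoplasmic reticulum, joins serine to a fatty acyl-CoA, and after acylation by ceramide synthases a desaturase turns dihydroceramide into ceramide. Ceramide is the branch point: one route adds phosphocholine to give sphingomyelin, another adds glucose, then galactose to give lactosylceramide, and then sialic acid to give GM3, the ganglioside that is abundant in adipocytes and known for its effect on the insulin receptor. Ceramide can also be broken down to sphingosine, which sphingosine kinases turn into the signalling lipid sphingosine-1-phosphate.

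Ugcg, B4galt5 and St3gal5 act one after the other on the route to GM3, and the first pair was higher in either white depot than in BAT whereas St3gal5 was highest in BAT, so the sequences just ahead of these genes are given. Each is the 250 bases before the gene start, 5′ to 3′ on the gene's strand, from RefSeq on GRCm38.p6; 9 of the 10 genes had an entry in the RefSeq table. Capitals mark a GC box (GGGCGG) or a CCAAT box (CCAAT) on either strand, and neighbouring GC boxes may overlap.
Ugcg, chr4:59189300-59189549, plus strand: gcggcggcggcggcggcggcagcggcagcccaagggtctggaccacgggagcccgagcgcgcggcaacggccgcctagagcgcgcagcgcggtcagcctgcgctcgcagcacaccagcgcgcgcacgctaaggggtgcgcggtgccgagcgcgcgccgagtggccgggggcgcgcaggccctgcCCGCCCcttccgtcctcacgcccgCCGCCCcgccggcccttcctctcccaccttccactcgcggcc
B4galt5, chr2:167349179-167349428, minus strand: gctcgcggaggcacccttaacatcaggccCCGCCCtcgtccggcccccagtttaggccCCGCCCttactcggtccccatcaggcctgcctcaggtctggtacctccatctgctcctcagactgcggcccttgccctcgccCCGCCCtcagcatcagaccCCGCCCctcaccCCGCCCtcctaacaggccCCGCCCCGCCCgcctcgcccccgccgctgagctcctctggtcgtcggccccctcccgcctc
St3gal5, chr6:72097358-72097607, plus strand: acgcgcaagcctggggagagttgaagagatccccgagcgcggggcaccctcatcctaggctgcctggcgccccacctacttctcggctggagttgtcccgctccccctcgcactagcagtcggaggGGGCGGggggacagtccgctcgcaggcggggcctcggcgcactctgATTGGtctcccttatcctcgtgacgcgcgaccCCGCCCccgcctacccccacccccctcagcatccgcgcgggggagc

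All 3 stretches were rich in G and C, with 80.4% in Ugcg, 73.2% in B4galt5 and 71.6% in St3gal5 against a median of 52.4% over all promoters of this length. The GC box was found 2 times in Ugcg, 7 times in B4galt5 and 2 times in St3gal5, and 32.7% of 32851 promoters held at least 1. The CCAAT box was found 1 time in St3gal5 and not in the other two, against 33.8% of all promoters. None of the 3 held a TATA box (TATAAA, in 12.4% of all promoters), an E-box (CACGTG, in 6.02%) or a cyclic AMP response element (TGACGTCA, in 1.55%) on either strand. These matches describe letters and not binding.

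By mean level, 9 of the 10 genes were most abundant in eWAT adipocytes, intermediate in iWAT adipocytes and lowest in BAT. St3gal5, the GM3 synthase, was most abundant in BAT. Genes were tested with edgeR's quasi-likelihood F test over all genes averaging 10 or more counts in the samples compared, with TMM scaling, and a gene is said to differ where the Benjamini-Hochberg adjusted p was under 0.05. Between iWAT and eWAT adipocytes 9 of the 10 differed, and all 9 were higher in eWAT. Of all genes tested in that comparison 68.6% differed, 34.1% higher in iWAT and 34.5% higher in eWAT. Between iWAT and BAT 9 of 9 tested genes differed, 8 higher in iWAT and 1 in BAT, where 75.3% of all genes differed, 38.1% higher in iWAT and 37.2% higher in BAT. Sptlc3 had too few reads for this comparison, and in the other two it passed the count minimum only through eWAT, so that it had to differ; leaving it out, 8 of 9 genes differed between the white depots and 9 of 9 between eWAT and BAT. Between eWAT and BAT all 10 differed, 9 higher in eWAT and 1 in BAT, where 82.5% of all genes differed, 41.1% higher in eWAT and 41.4% higher in BAT. The median log2 fold change of the genes tested here was -0.76 for iWAT over eWAT, 1.38 for iWAT over BAT and 2.08 for eWAT over BAT, beside medians over all genes of 0.0014, 0.014 and -0.017. These comparisons share samples, so their counts are not independent.

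**Figure D1:**
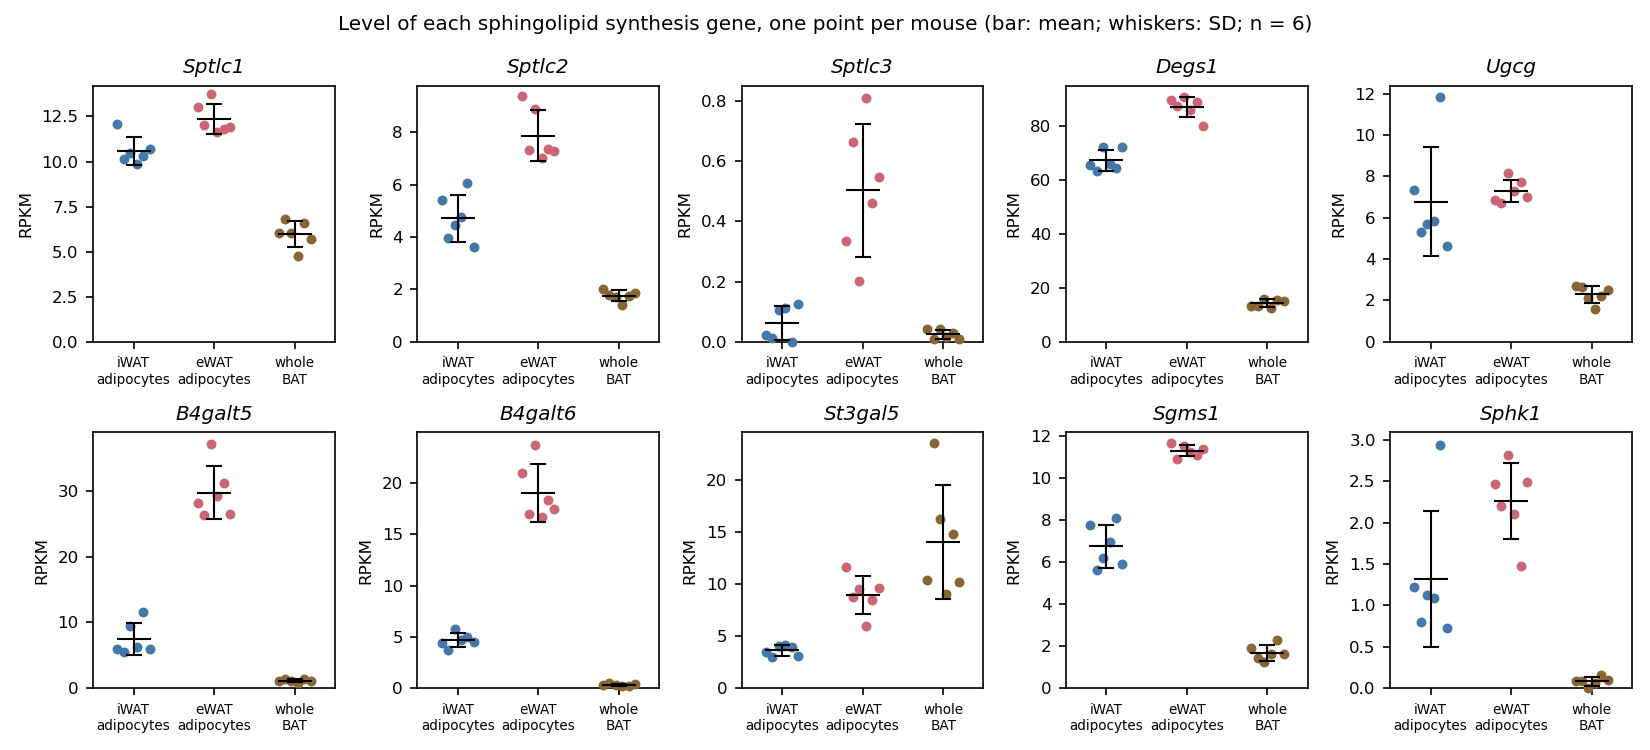
RPKM (vertical axes, linear from 0, a different range for each gene) of the 10 genes in iWAT adipocytes, eWAT adipocytes and whole BAT. Each point is 1 sample, the long bar the mean and the whiskers the SD (n = 6 per tissue). B4galt5 and B4galt6 were between 16.7 and 37.0 in every eWAT sample and at most 11.5 in every other sample, and St3gal5 alone has its highest values in BAT.

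Scale matters for the comparisons with BAT. The mean TMM factor, which corrects for a few very abundant transcripts taking up reads, was 0.658 in BAT, 1.21 in iWAT and 1.27 in eWAT. Without this factor the median over all genes moved to 0.87 for iWAT over BAT and 0.89 for eWAT over BAT, and the genes that differed split into 13703 higher in iWAT and 3054 higher in BAT, and into 12965 higher in eWAT and 4061 higher in BAT. With TMM the splits were 7528 and 7336, and 8243 and 8318. The RPKM values printed below carry no TMM factor, whereas the fold changes do, so a fold change against BAT is smaller than the ratio of the RPKM values for a gene higher in a white depot and larger for St3gal5.

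Sptlc1 encodes the subunit of serine palmitoyltransferase that all forms of the enzyme share (mm9 chr13:53428068-53472766, minus strand). Its RPKM ran from 9.84 through a median of 10.4 to 12.1 in iWAT, from 11.7 through 12.0 to 13.7 in eWAT, and from 4.78 through 6.05 to 6.79 in BAT. The white depots overlapped and BAT lay below both. With TMM scaling its differences from BAT were the smallest of the 10 genes. The log2 fold change was -0.22 (SE 0.06, adjusted p 0.0051) for iWAT over eWAT, 0.22 (SE 0.07, adjusted p 0.0080) for iWAT over BAT and 0.46 (SE 0.07, adjusted p 1.3e-05) for eWAT over BAT. With the mouse number as a block, on the 4 mice that gave both iWAT and BAT, the second was 0.23 with an adjusted p of 0.11 and no longer differed.

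Sptlc2 encodes the usual catalytic partner of Sptlc1 (mm9 chr12:88646008-88729305, minus strand). Levels of this subunit ran from 3.63 through 4.604 to 6.05 RPKM in iWAT, from 7.03 through 7.35 to 9.37 in eWAT, and from 1.39 through 1.77 to 2.03 in BAT. No tissues overlapped. The level in eWAT was 1.67-fold that in iWAT (log2 fold change -0.74 for iWAT over eWAT, SE 0.11, adjusted p 5.1e-05). Against BAT the log2 fold change was 0.81 (SE 0.10, adjusted p 1.7e-06) in iWAT and 1.58 (SE 0.09, adjusted p 2.4e-10) in eWAT, both larger than the values of Sptlc1.

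Sptlc3, the alternative catalytic subunit (mm9 chr2:139319649-139463410, plus strand), was near the limit of detection outside eWAT. It had 0 to 11 reads per sample in iWAT, 17 to 64 in eWAT and 1 to 4 in BAT. In RPKM this was 0 through 0.0639 to 0.124 in iWAT, 0.201 through 0.504 to 0.808 in eWAT and 0.00911 through 0.0225 to 0.0432 in BAT, so that every eWAT sample lay above every other sample. The single sample at 0 reads was iWAT of mouse 5, and a count of 0 there allows up to 3 reads, counting error only. The log2 fold change was -2.93 (SE 0.53, adjusted p 0.00029) for iWAT over eWAT and 3.72 (SE 0.44, adjusted p 1.2e-06) for eWAT over BAT, the widest errors among the 10 genes in these comparisons. With so few reads outside eWAT these sizes depend on the fit: limma gave -1.87 and 2.19 on log2(RPKM + 0.1), and -0.49 and 0.54 on log2(RPKM + 1).

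Degs1, the dihydroceramide desaturase that makes ceramide (mm9 chr1:184205901-184212935, minus strand), had the highest mean RPKM of the 10 genes in all 3 tissues. The RPKM of Degs1 ran from 63.4 through 65.8 to 72.4 in iWAT, from 80.0 through 88.2 to 90.6 in eWAT, and from 12.4 through 14.2 to 16.01 in BAT. In BAT its mean of 14.3 ± 1.47 was close to that of St3gal5, 14.03 ± 5.45 (SD, n = 6). The tissues did not overlap, and the spread among mice was narrow, with a coefficient of variation (SD as a percentage of the mean) of 5.79% in iWAT and 4.38% in eWAT. The step between the white depots was small, 1.28-fold (log2 fold change -0.36 for iWAT over eWAT, SE 0.06, adjusted p 0.00026). The step to BAT was larger, with log2 fold changes of 1.63 (SE 0.09, adjusted p 1.3e-10) in iWAT and 2.02 (SE 0.09, adjusted p 8.0e-12) in eWAT.

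Ugcg encodes glucosylceramide synthase, which opens the glycolipid branch (mm9 chr4:59202129-59235705, plus strand). It was the only 1 of the 10 that did not differ between the white depots. In RPKM, Ugcg ran from 4.62 through 5.77 to 11.9 in iWAT, from 6.72 through 7.15 to 8.15 in eWAT, and from 1.59 through 2.36 to 2.71 in BAT. The iWAT values straddled those of eWAT because mouse 5, at 11.9, lay above every eWAT sample, while 4 of the other 5 lay below all of them. The log2 fold change for iWAT over eWAT was -0.11 (SE 0.17, 95% interval -0.45 to 0.23, adjusted p 0.58). Without the iWAT sample of mouse 5 it was -0.32 with an adjusted p of 0.0077, so this 1 sample set the call. Against BAT, Ugcg was higher by a log2 fold change of 0.94 (SE 0.17, adjusted p 0.00015) in iWAT and 1.09 (SE 0.09, adjusted p 1.6e-08) in eWAT.

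The iWAT sample of mouse 5 also stood apart in its markers. Among the 6 iWAT samples it had the lowest adipocyte sum (10484 RPKM) and the highest endothelial (267), B cell (1.71) and T cell (0.264) sums, and its macrophage sum of 790 ranked 2 from the top. The B and T cell sums rest on few reads. In iWAT no B cell marker had over 43 reads in a sample and no T cell marker over 10. Whether these marker sums had a part in the Ugcg value of mouse 5 was not tested.

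B4galt5 and B4galt6 encode the pair of galactosyltransferases that turn glucosylceramide into lactosylceramide. B4galt5 (mm9 chr2:167123944-167174683, minus strand) ran from 5.48 through 6.16 to 11.5 RPKM in iWAT, from 26.4 through 28.6 to 37.0 in eWAT and from 0.879 through 1.11 to 1.47 in BAT. No tissues overlapped, although mouse 5 (11.5) and mouse 3 (9.49) stood above the other iWAT samples. Its level in eWAT was 3.98-fold that in iWAT (log2 fold change -1.99 for iWAT over eWAT, SE 0.17, adjusted p 8.0e-07) and 17.02-fold that in BAT (log2 fold change 4.09, SE 0.11, adjusted p 1.6e-13). For iWAT over BAT the log2 fold change was 2.07 (SE 0.17, adjusted p 2.7e-08).

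B4galt6 lies on chromosome 18 (mm9, positions 20843100 to 20904905, minus strand). The RPKM of B4galt6 ran from 3.71 through 4.58 to 5.77 in iWAT, from 16.7 through 17.9 to 23.7 in eWAT, and from 0.233 through 0.316 to 0.482 in BAT. No tissues overlapped. The step between the white depots was almost that of B4galt5, 4.04-fold (log2 fold change -2.02 for iWAT over eWAT, SE 0.11, adjusted p 1.2e-07). The step to BAT was wider, where the log2 values were 3.17 (SE 0.15, adjusted p 3.2e-11) for iWAT and 5.21 (SE 0.16, adjusted p 2.7e-13), or 37.1-fold, for eWAT.

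St3gal5 encodes GM3 synthase, which adds sialic acid to lactosylceramide (mm9 chr6:72047602-72104564, plus strand). Its RPKM ran from 3.02 through 3.74 to 4.13 in iWAT, from 5.98 through 9.12 to 11.6 in eWAT, and from 9.03 through 12.6 to 23.5 in BAT. The iWAT samples lay below all others, and eWAT and BAT overlapped. The log2 fold change was -1.29 (SE 0.13, adjusted p 2.9e-06) for iWAT over eWAT, -2.54 (SE 0.19, adjusted p 6.5e-09) for iWAT over BAT and -1.22 (SE 0.20, adjusted p 4.5e-05) for eWAT over BAT. The size of the last depended on the scaling: in edgeR without the TMM factor it was -0.33 with an adjusted p of 0.17. The limma fits on RPKM, which also carry no TMM factor but rest on another library total, still called it. They gave -0.59 on log2(RPKM + 0.1) (limma adjusted p 0.021) and -0.54 on log2(RPKM + 1) (limma adjusted p 0.022). The median over all genes for eWAT over BAT was 0.48 and 0.25 in these limma fits, against 0.89 in edgeR without TMM. The fits without TMM were thus not on the same scale. The BAT samples varied widely, with a coefficient of variation of 38.8%, and mouse 2 was highest at 23.5.

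**Figure D2:**
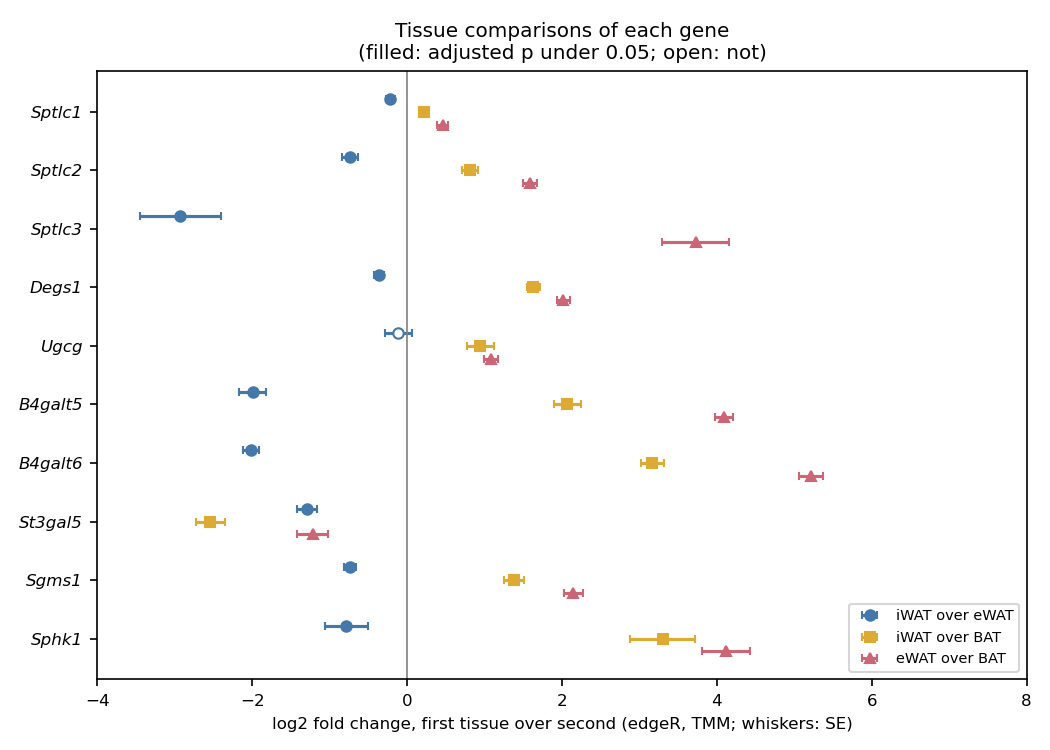
Log2 fold change (horizontal axis) with its SE (whiskers) for each of the 10 genes (vertical axis) in the 3 tissue comparisons, from edgeR with TMM scaling on 6 samples per tissue. Positive values are higher in the tissue named first. St3gal5 is negative in all 3 comparisons (-1.29, -2.54 and -1.22), the open circle is Ugcg between the white depots (-0.11), and Sptlc3 has no point for iWAT over BAT.

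The order of the galactosylation and sialylation genes thus turned over between the tissues. The summed RPKM of B4galt5 and B4galt6 was 3.31 ± 0.547 times that of St3gal5 in iWAT (SD, n = 6), 5.61 ± 1.29 times in eWAT and 0.115 ± 0.0290 times in BAT. The ratio ran from 2.67 to 4.16 in iWAT, from 4.23 to 7.67 in eWAT and from 0.0829 to 0.157 in BAT. It was chosen after the values of the genes had been seen and is given without a test.

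Sgms1, sphingomyelin synthase of the Golgi, competes with Ugcg for ceramide (mm9 chr19:32197217-32464204, minus strand). In RPKM, Sgms1 ran from 5.61 through 6.59 to 8.12 in iWAT, from 10.9 through 11.3 to 11.7 in eWAT, and from 1.24 through 1.64 to 2.32 in BAT. No tissues overlapped, and eWAT had the smallest coefficient of variation of any of the 10 genes in any tissue, 2.38%. The log2 fold change was -0.74 (SE 0.08, adjusted p 2.8e-06) for iWAT over eWAT, 1.38 (SE 0.13, adjusted p 7.4e-08) for iWAT over BAT and 2.15 (SE 0.12, adjusted p 1.9e-10) for eWAT over BAT. The row overlaps an antisense transcript, 2700046G09Rik, at a mean RPKM of 0.966 in iWAT, 0.645 in eWAT and 0.545 in BAT, and whether reads were counted by strand was not given in the sources used here.

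Sphk1, 1 of the 2 sphingosine kinases (mm9 chr11:116392239-116397989, plus strand), was a low transcript in the white depots and almost undetected in BAT. Its RPKM ran from 0.725 through 1.10 to 2.94 in iWAT, from 1.48 through 2.33 to 2.82 in eWAT, and from 0 through 0.0847 to 0.165 in BAT, where it had 0 to 28 reads. BAT lay below every white sample, and the white depots overlapped through the iWAT sample of mouse 5, at 2.94 against 0.725 to 1.22 in the other 5 samples. The log2 fold change was -0.79 (SE 0.28, adjusted p 0.024) for iWAT over eWAT, 3.30 (SE 0.42, adjusted p 3.4e-06) for iWAT over BAT and 4.12 (SE 0.31, adjusted p 6.4e-09) for eWAT over BAT. An antisense transcript that overlaps this row, AK003499, had a mean RPKM of 0.522 in iWAT, 0.883 in eWAT and 0.0173 in BAT, the same order as Sphk1, so reads of the pair may be shared.

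Within a sample, the share that 1 enzyme takes of a pair does not depend on the scaling between samples. For each pair the share of summed RPKM was compared between tissues with a two-sided exact permutation test, and p-values were adjusted over the 15 tests. The smallest p this design allows is 0.00216. B4galt6 made up 39.4% ± 4.88 of lactosylceramide synthase transcripts in iWAT (SD, n = 6), 39.0% ± 2.23 in eWAT and 22.5% ± 3.39 in BAT. The white depots differed by 0.409 percentage points (exact permutation test, adjusted p 0.937), whereas every BAT sample lay below every white sample (adjusted p 0.0041 against each depot, exact permutation test). Although both genes were about 4-fold higher in eWAT than in iWAT, their proportion thus showed no detectable difference.

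Sptlc3 made up 1.44% ± 1.36 of the catalytic serine palmitoyltransferase transcripts in iWAT (SD, n = 6), 6.19% ± 3.02 in eWAT and 1.39% ± 0.802 in BAT. The eWAT share was higher than that of iWAT (exact permutation test, adjusted p 0.0130) and of BAT (exact permutation test, adjusted p 0.0072), while iWAT and BAT differed by 0.0561 points (exact permutation test, adjusted p 0.937). With the mice as pairs the difference between the white depots was -4.74 points with an exact adjusted p of 0.104. On a log2 ratio scale the difference between eWAT and BAT was 0.08 with an exact adjusted p of 0.858, on which scale the added 0.1 RPKM exceeded the Sptlc3 level of every BAT sample.

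Sgms2, the sphingomyelin synthase of the plasma membrane, made up 26.6% ± 4.79 of Sgms1 and Sgms2 in iWAT (SD, n = 6), 15.4% ± 1.83 in eWAT and 32.4% ± 7.59 in BAT. The eWAT samples lay below all others (exact permutation test, adjusted p 0.0041 against either tissue), and iWAT and BAT overlapped (exact permutation test, adjusted p 0.162). Sgms2 itself had a mean RPKM of 2.42 in iWAT, 2.06 in eWAT and 0.793 in BAT and did not differ between the white depots (log2 fold change 0.24, SE 0.12, edgeR adjusted p 0.082).

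Sphk1 made up 15.6% ± 7.76 of the sphingosine kinase transcripts in iWAT (SD, n = 6), 20.5% ± 1.97 in eWAT and 1.90% ± 1.24 in BAT, where Sphk2 accounted for the rest. BAT lay below all white samples (exact permutation test, adjusted p 0.0041 against each depot), and the white depots overlapped (exact permutation test, adjusted p 0.197). Without the iWAT sample of mouse 5 the white depots differed by -7.96 points (exact permutation test, adjusted p 0.0059). Sphk2 had mean RPKM values of 6.82, 8.66 and 4.68 in iWAT, eWAT and BAT.

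At the branch point, Ugcg made up 49.0% ± 5.43 of Ugcg and Sgms1 in iWAT (SD, n = 6), 39.2% ± 1.74 in eWAT and 57.5% ± 6.81 in BAT. The eWAT samples lay below all others (exact permutation test, adjusted p 0.0041 against either tissue), and BAT was higher than iWAT with overlap (exact permutation test, adjusted p 0.0413). With the mice as pairs the differences between the white depots in the Ugcg share (9.81 points) and the Sgms2 share (11.2 points) had an exact adjusted p of 0.078, where 6 pairs cannot give a raw p below 0.03125.

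**Figure D3:**
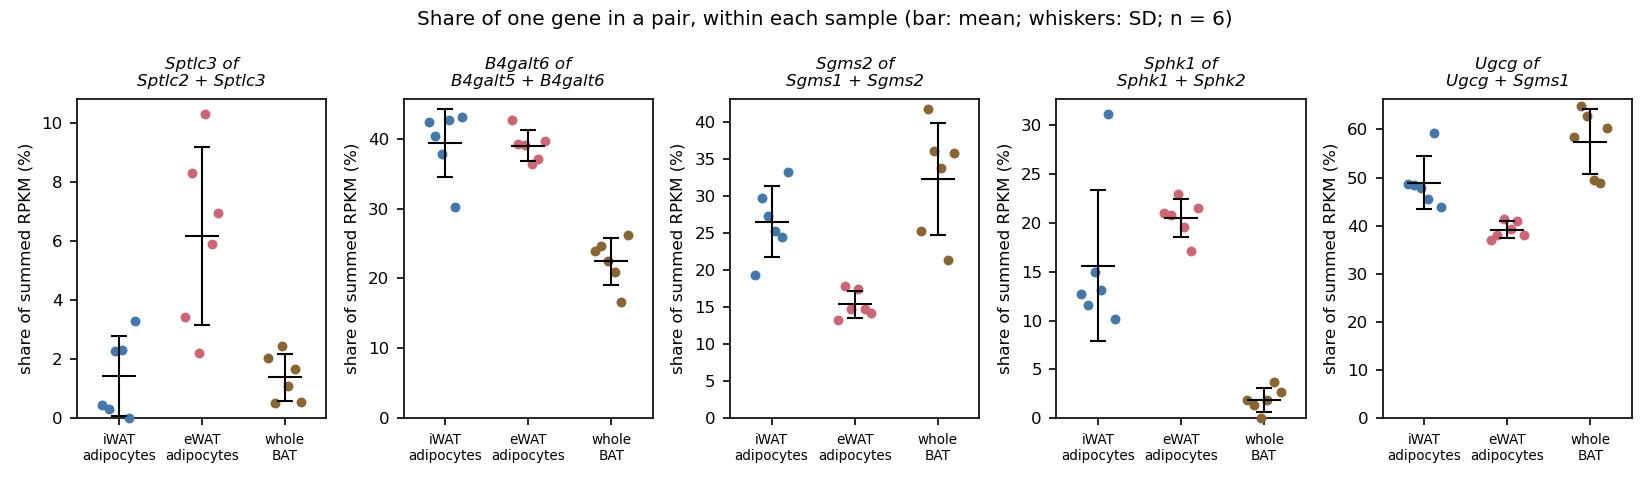
Share of 1 gene in the summed RPKM of a pair (vertical axes, percent, from 0) in each sample of iWAT adipocytes, eWAT adipocytes and whole BAT. Points are samples, the long bar is the mean and the whiskers the SD (n = 6 per tissue). B4galt6 keeps means of 39.4% and 39.0% in the white depots against 22.5% in BAT, and the iWAT sample of mouse 5 is the high point for Sphk1 (31.1%) and Ugcg (59.4%).

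Macrophage markers also varied among mice within a depot, and each gene was compared with them over the 6 samples of a depot, on log2(RPKM + 0.1), as 20 relations. No relation passed the adjustment, which left 0.056 as the lowest adjusted p of an exact permutation test. B4galt6 in iWAT gave that value. Its Pearson's r was 0.955 (exact permutation p 0.0028) and its Spearman's rho was 1 (exact permutation p 0.0028, adjusted 0.056). Its r was 0.992 in the 4 samples left after dropping the 2 whose marker levels lay at the extremes. A rho of 1 is the largest possible, and its exact permutation p of 0.0028 is the lowest that 6 samples allow, for r as for rho. A lone relation among the 20 could thus not pass by either measure. The lack of a pass by r or by rho does not decide whether a relation exists. In iWAT r was 0.875 for B4galt5 (rho 0.886, r in 4 samples 0.876) and 0.903 for St3gal5 (rho 0.771, r in 4 samples 0.806). Both had an adjusted exact permutation p of 0.079 for r. In eWAT, B4galt6 had r of 0.957 (rho 0.886, exact permutation p 0.022, adjusted 0.079), which was 0.361 in the 4 samples and so rested on the other 2. Sptlc1 in eWAT did the same, from 0.960 to 0.153 (rho 0.657, adjusted exact permutation p of r 0.079). Sptlc2 in eWAT fell from 0.939 to 0.298 (adjusted exact permutation p of r 0.206). B4galt5 in eWAT had r of 0.589, and -0.253 in the 4 samples (adjusted exact permutation p of r 0.431). St3gal5 in eWAT had r of 0.652, and 0.575 in the 4 samples (adjusted exact permutation p of r 0.206). Sgms1 in eWAT had r of 0.861, and 0.810 in the 4 samples (rho 0.886, adjusted exact permutation p of r 0.079). Ugcg had r of 0.464 in iWAT and 0.385 in eWAT (adjusted exact permutation p 0.458 and 0.477; rho 0.314 and 0.486). Sptlc3 in eWAT ran the other way, with r of -0.925 and -0.534 in the 4 samples (rho -0.886, adjusted exact permutation p of r 0.079). The relations not named here had an adjusted exact permutation p of r of 0.194 or more. A sequencing lane held at most 4 samples of a depot, under the 6 asked of a correlation here, so none is given within lanes.

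**Figure D4:**
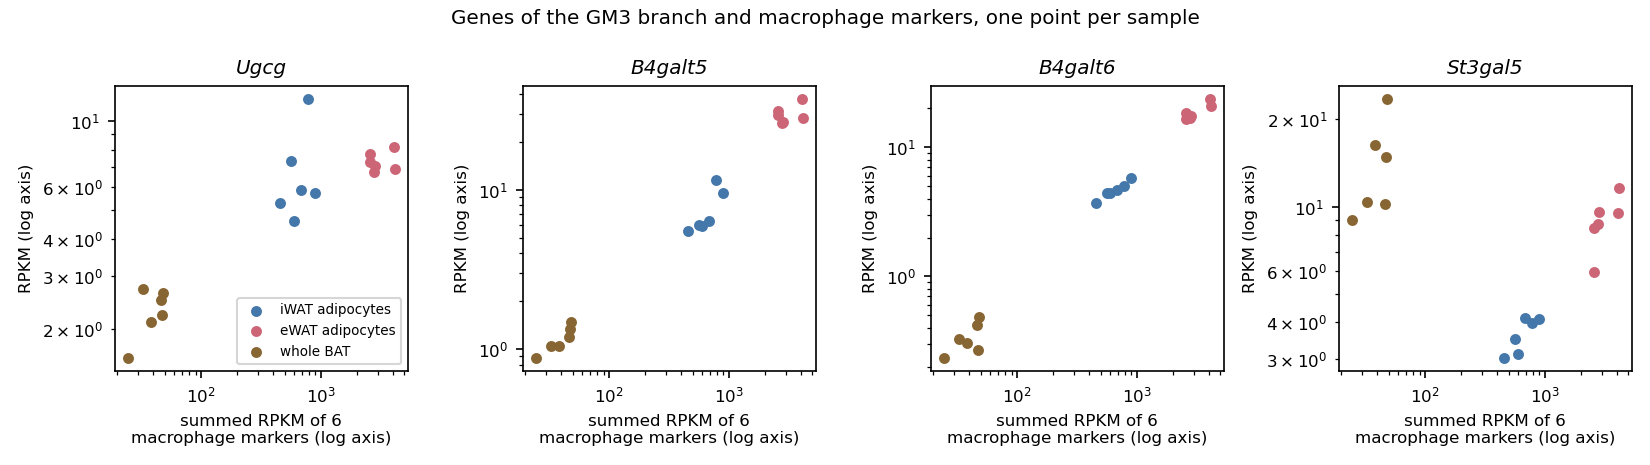
RPKM of Ugcg, B4galt5, B4galt6 and St3gal5 (vertical log axes) against the summed RPKM of 6 macrophage markers (horizontal log axes). Each point is 1 of the 18 samples, coloured by tissue. The marker sum is 24.5 to 48.4 in BAT, 459 to 892 in iWAT and 2601 to 4159 in eWAT, and B4galt5 and B4galt6 rise with it from tissue to tissue while St3gal5 is highest where it is lowest.

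Over all 18 samples, the genes whose levels ran most like each of the 10, by Pearson's r of log2(RPKM + 0.1), were found among genes with a mean RPKM of at least 1. These correlations are descriptions across samples that share the tissue differences. B4galt6 was most like Cd300ld, a receptor of myeloid cells (r = 0.998, with mean RPKM of 13.3 in iWAT, 63.1 in eWAT and 0.985 in BAT). Next but one was Myo1g, a myosin of blood cells (r = 0.998). B4galt5 was most like Rbpj, Osbpl8 and the lysosomal protease Ctsh (r = 0.997, 0.997 and 0.996). Ugcg was most like the interleukin receptor chain Il4ra (r = 0.989), Sptlc2 like Wipf1 and Elmo1 (r = 0.995 for both), Sptlc1 like Casp9 (r = 0.994), Sgms1 like Prcp (r = 0.993), Degs1 like Stam2 (r = 0.997) and Sphk1 like Wsb1 (r = 0.989). St3gal5 was most like the hyaluronidase Hyal1 (r = 0.960) and Rdh13 (r = 0.958), and Sptlc3 like Ociad2 (r = 0.892). None of the 3 genes most like each enzyme was another of the 10. The 3 were taken from 14157 genes, so their absence there does not show that the enzymes ran apart.

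Of 63 other genes of sphingolipid metabolism, 62 were found. Between the white depots 41 of the 53 tested differed, 15 higher in iWAT and 26 higher in eWAT, with a median log2 fold change of -0.17, where 68.6% of all genes differed. Against BAT 43 of 54 differed for iWAT, 31 higher in iWAT and 12 in BAT with a median of 0.49, and 52 of 54 for eWAT, 35 higher in eWAT and 17 in BAT with a median of 0.82, where 75.3% and 82.5% of all genes differed. These splits depended on the scaling: without TMM they were 48 higher in iWAT and 4 in BAT, and 42 higher in eWAT and 5 in BAT. The glycolipid hydrolases and their helpers had 8 of 12 genes higher in eWAT than in iWAT and 0 higher in iWAT. Over all genes the shares were 34.5% and 34.1%. The macrophage marker sums given above have the same tissue order, and their part in these counts was not tested. The same list had 9 genes higher in eWAT and 3 higher in BAT, and 8 higher in iWAT and 2 higher in BAT. Of the sphingosine-1-phosphate receptors, 2 of 4 were higher in iWAT and 1 in eWAT, 1 of 5 was higher in iWAT and 1 in BAT, and 1 of 5 was higher in eWAT and 3 in BAT. The remaining lists, each given as counts higher in iWAT and in eWAT, were 1 and 2 of 4 for regulators of serine palmitoyltransferase, 3 and 3 of 6 for the later steps to ceramide, 1 and 2 of 6 for the sphingomyelin branch, and 2 and 3 of 7 for later ganglioside, globo and lacto steps. They were 2 and 3 of 5 for ceramide breakdown, and 2 and 3 of 5 for the sphingosine-1-phosphate enzymes. They were 1 and 1 of 3 for lipid transfer, and 1 and 0 of 1 for the galactosylceramide branch.

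Between the white depots, the other sphingolipid genes with the largest differences toward iWAT were Ormdl3, a brake on serine palmitoyltransferase, and the receptors S1pr4 and S1pr1. Ormdl3 averaged 98.1 ± 12.9 RPKM in iWAT and 35.1 ± 13.3 in eWAT (SD, n = 6; log2 fold change 1.49, SE 0.24, edgeR adjusted p 0.00010). S1pr1, which is abundant on endothelial cells, averaged 57.2 ± 24.5 and 22.8 ± 5.10 (SD, n = 6; log2 fold change 1.32, SE 0.25, edgeR adjusted p 0.00038). S1pr4, a receptor of lymphoid cells, had log2 fold change 1.42 (SE 0.28, edgeR adjusted p 0.00056) at mean levels of 0.877 and 0.330 RPKM. Summed RPKM of 4 endothelial markers was 91.8 to 267 in iWAT and 32.4 to 69.6 in eWAT, and its part in the receptor values was not tested. Toward eWAT, genes with large differences were B4galnt1, the GM2 synthase that takes up GM3, and S1pr2. B4galnt1 averaged 2.93 ± 0.655 and 11.9 ± 2.56 RPKM (SD, n = 6; log2 fold change -2.02, SE 0.16, edgeR adjusted p 4.6e-07). The B4galnt1 row overlaps Slc26a10, at a mean RPKM of 4.50 over all samples, above the level of B4galnt1 in iWAT and BAT, so its values are uncertain. S1pr2 averaged 2.71 ± 0.417 and 10.5 ± 2.08 RPKM (SD, n = 6; log2 fold change -1.94, SE 0.13, edgeR adjusted p 2.0e-07).

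Of the other sphingolipid genes higher in a white depot than in BAT, the ceramide synthase Cers6, which makes ceramides with shorter acyl chains, had the largest log2 fold change in both comparisons. It averaged 3.63 ± 0.687 RPKM in iWAT, 10.4 ± 1.67 in eWAT and 0.121 ± 0.0236 in BAT (SD, n = 6), with edgeR log2 fold changes of 4.29 (SE 0.16, adjusted p 3.8e-12) for iWAT and 5.84 (SE 0.16, adjusted p 1.6e-13) for eWAT. Cers5 went the other way, at 35.6, 21.2 and 125 RPKM in iWAT, eWAT and BAT, but its row overlaps Gpd1, a very abundant transcript with a mean RPKM of 716, so its value is uncertain. In iWAT, A4galt, which makes globo lipids from lactosylceramide (3.39 on the log2 scale, SE 0.17, edgeR adjusted p 7.2e-11), and Ugt8a, the galactosylceramide synthase (3.22, SE 0.55, edgeR adjusted p 6.6e-05, with 0 to 11 reads in BAT, so that this fitted size is not exact), followed Cers6. In eWAT, the lysosomal galactosidase Gla (4.72, SE 0.15, edgeR adjusted p 3.9e-13) and B4galnt1 (4.38, SE 0.18, edgeR adjusted p 4.5e-12) did. The genes furthest toward BAT beside Cers5 were S1pr5 and the sphingosine-1-phosphate exporter Mfsd2b. S1pr5 averaged 1.57 ± 0.402 RPKM in BAT, 0.0939 ± 0.0608 in iWAT and 0.0301 ± 0.0262 in eWAT (SD, n = 6), with 0 to 5 reads in each eWAT sample. Its log2 fold change was -4.65 (SE 0.27, edgeR adjusted p 3.1e-10) for iWAT over BAT and -6.26 (SE 0.32, edgeR adjusted p 8.0e-11) for eWAT over BAT. With so few reads in the white depots it passed the count minimum through BAT, and these fitted sizes are not exact. Mfsd2b averaged 0.223 RPKM in BAT, 0.0595 in iWAT and 0.0361 in eWAT, with log2 fold changes of -2.51 (SE 0.19, edgeR adjusted p 6.4e-09) and -3.20 (SE 0.22, edgeR adjusted p 1.9e-09). It had 34 to 71 reads per sample in BAT, 9 to 18 in iWAT and 4 to 12 in eWAT, so these fitted sizes are not exact either.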

How the data were processed

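RNA-seq was performed on 18 libraries from HFD-fed mice, 6 each from iWAT adipocytes, eWAT adipocytes and whole BAT (RNA integrity number over 8, NEBNext Ultra kit, Illumina HiSeq). The authors trimmed reads with cutadapt 1.16, mapped them to the mouse genome (mm9) with HISAT2 2.1.0, and deposited a raw read count and an RPKM for each of 53445 rows, per the submitters' processing notes; the counting program, annotation and treatment of reads with several matches were not given in the sources used here. A treatment field in the labels names regular chow, whereas the titles and protocol give the HFD, which was followed. The substrain of the C57BL/6 mice also differed between sources. Where a symbol had several rows, only that of greatest mean RPKM was used; the 10 genes lie within 32 bases of their GENCODE vM1 coordinates, and 6 of them overlap another row.

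Counts were tested in edgeR 4.0.16 (R 4.3.3, quasi-likelihood F test, TMM, genes averaging 10 or more counts in the 12 libraries, two-sided, Benjamini-Hochberg adjustment over all genes, threshold 0.05), with SE taken as the log2 fold change over the square root of F. The fits were also run on simulated data, but no outcome is reported here, so nothing about these comparisons rests on that check. Alternatives were DESeq2 1.42.0, limma 3.58.1 on log2(RPKM + 0.1) and log2(RPKM + 1), no TMM, no count minimum, summed rows, the lane, the mouse number as a block, all 18 samples in 1 fit and, chosen after seeing the data, leaving out the iWAT sample of mouse 5. Shares and correlations used exact permutation tests, with n of 6 per tissue. The number in each title was taken as the mouse. Deviations of samples with the same number had a mean correlation of -0.0025 between iWAT and eWAT (range -0.23 to 0.40, 6 pairs), -0.016 between iWAT and BAT and 0.017 between eWAT and BAT (4 pairs each). Sample labels alone say that replicates are separate animals. Members and lists were chosen with earlier results of these data known. All 10 genes are named; of the other sphingolipid genes, the 3 with the largest absolute log2 fold change in each direction among those past the threshold are named, except that 1 is not reported here, and Sgms2 and Sphk2 as partners in a share.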

Additional observations from a re-analysis of the deposited data

Results flagged for a closer look

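Among the 6 iWAT samples, mouse 5 lay apart from the other 5 in 3 values. Its Sphk1 level was 2.94 RPKM against 0.725 to 1.22 in the others. Its share of Sphk1 in Sphk1 plus Sphk2 was 31.1% against 10.2% to 14.99%. Its share of Ugcg in Ugcg plus Sgms1 was 59.4% against 43.8% to 48.6%. In each case the gap to the nearest sample, relative to the range of the group, was above Dixon's 95% critical value for 6 samples. There were 45 such groups (10 genes and 5 shares in 3 tissues), of which chance alone gives about 2.25.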

How the results depend on the processing

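The total counts of genes that differed stayed within 1.5 times the reported count under all 27 settings tried for the 10 genes and all 27 for the other sphingolipid genes, and 258 of 261 log2 fold changes kept their direction and side of the threshold. The split by direction moved more: without TMM the other sphingolipid genes higher in BAT numbered 4 in place of 12 against iWAT and 5 in place of 17 against eWAT. Sizes moved by over 1.5 times for many comparisons with BAT without TMM, and for Sptlc3 in limma, from -2.93 to -0.49 for iWAT over eWAT and from 3.72 to 0.54 for eWAT over BAT, with 1 RPKM added. The exceptions were Sptlc1 for iWAT over BAT with the mouse number as a block (0.23, adjusted p 0.11), St3gal5 for eWAT over BAT without TMM (-0.33, adjusted p 0.17) and Ugcg for iWAT over eWAT without iWAT mouse 5 (-0.32, adjusted p 0.0077). Of 55 values for shares, 48 held. With the mouse number as a block, the adjusted exact p was above 0.05 between the white depots for Sptlc3 (-4.74 points, 0.104), Sgms2 (11.2 points, 0.078) and Ugcg (9.81 points, 0.078), and the small Sptlc3 difference between iWAT and BAT turned to -0.513 points (4 pairs, where p cannot fall below 0.125). As a log2 ratio with 0.1 RPKM added, Sptlc3 gave -1.05 for iWAT against BAT (turned, exact adjusted p 0.0108) and 0.082 for eWAT against BAT (exact adjusted p 0.858); the added value exceeds the Sptlc3 level of every BAT sample. Without iWAT mouse 5 the Sphk1 share differed between the white depots (-7.96 points, exact permutation test, adjusted p 0.0059). The block changed no other call among the 10 genes, nor for the other shares between the white depots, and for shares against BAT 4 pairs allow no call. All 40 correlation values kept their side. Depth limits Sptlc3 outside eWAT (at most 11 reads) and Sphk1 in BAT (at most 28 reads).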
